A study of Mus musculus with 4 samples.

Results

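The genes described here are the p53 family (Trp53, Trp63, Trp73), its MDM inhibitors (Mdm2, Mdm4) and 5 direct p53 targets (Trp53inp1, Ccng1, Perp, Zmat3, Phlda3). Their probes were taken by gene name, as the array files give it or as the probe's transcript is currently named; the genes themselves were picked with earlier results of these data known. The rule found all 10 genes, with 22 of the 41174 different probes on the array, out of 27370 gene names in all. The measurements were made on cultured mouse germline stem cells of male testis origin, the culture counterpart of spermatogonial stem cells. The study's question was how forced expression of Nanos2, an RNA-binding protein of undifferentiated spermatogonia, alters gene expression in them. There were 2 arrays of cells given 4-hydroxytamoxifen for 48 hours, which the sample names shorten to Tamoxifen, and 2 arrays of cells given DMSO. Both groups had the genotype written as Roa-CreERT2;CAG-CAT-3FlagNanos2-pA, in which CreERT2 is a Cre recombinase that 4-hydroxytamoxifen activates, from a knock-in mouse, and the CAG construct supplies tagged Nanos2. No group took the compound without the construct, so effects of the compound, of Cre and of Nanos2 cannot be told apart. Their medium held FGF2 (10 ng/ml), EGF (20 ng/ml) and GDNF (20 ng/ml), and their feeder layer of mitomycin-C-treated C57Bl6 embryonic fibroblasts was taken away before RNA was prepared. Whether the 2 arrays of a group stand for separate cultures is not stated in the labels. The p-values then measure only how far these samples spread, and that spread may be technical.

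The p53 protein is a transcription factor that cells stabilise after DNA damage and other stress, and its targets stop the cell cycle, repair DNA or start apoptosis. p63 and p73 are its paralogues and bind much the same DNA element. MDM2 is the ubiquitin ligase that sends p53 to the proteasome and is itself a p53 target, which closes a feedback loop, while MDM4 binds p53 and blocks its transactivation domain. In the germ line, p53 family proteins are known for guarding the genome of germ cells, p63 in the oocyte being the best-known case.

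Each probe on this Agilent array is a 60-base oligonucleotide, and several probes of 1 gene can read different ends or forms of its transcripts. The size of the difference depended on the probe for Mdm4, only 1 of the Trp53 probes was called, and Trp63 and Trp73 were read near background. The probes of these genes that passed the filter are therefore shown by their bases 16 to 45, in lower case as no base is marked.
Mdm4 A_51_P176954: ccttggtggtttctagggaatttgagaaac
Mdm4 A_52_P485905: gagcagaaagctgaaacagaaagtatggaa
Mdm4 A_52_P174937: tctcttcaattctgcttagtcattttagac
Mdm4 A_52_P596201: gagggctggaacgggtagattacattgtac
Trp53 A_52_P781398: tcctcctccttcccagcagggtgtcacgct
Trp53 A_52_P491849: aagaaaatttccgcaaaaaggaagtccttt
Trp63 A_51_P216550: tatagacatgatacttttttacagcttcag
Trp73 A_52_P410636: cttctcctgtccttcctctgtgagaaactg
Trp73 A_52_P193555: gatacagtctagtgactctattaactgttt
On mm9, the build of the files, the Mdm4 probes lie on the minus strand of chromosome 1. A_51_P176954 is at chr1:134897893-134897952, A_52_P485905 at chr1:134888407-134888466, A_52_P174937 at chr1:134887400-134887459 and A_52_P596201 at chr1:134885207-134885266. The first 3 were designed on the RefSeq transcript of Mdm4, and A_52_P596201 on a separate cDNA that the files also assign to Mdm4. Along the direction of transcription, A_52_P596201 is the most 3′, and the others lie 2193, 3200 and 12686 bases of genome upstream of it. The Trp53 probes are on the plus strand of chromosome 11, A_52_P781398 at chr11:69393959-69394017 and A_52_P491849 at chr11:69403134-69403193, which is 9176 bases further 3′. The Trp63 probe that passed the filter is at chr16:25892012-25892071 on the plus strand. The Trp73 probes are on the minus strand at chr4:153433043-153433102 (A_52_P410636) and chr4:153430443-153430502 (A_52_P193555). Whether these positions fall in coding exons, untranslated regions or introns is not given in the sources used here.

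Values are scaled signals, that is, processed array signals brought to 1 common 75th percentile. They are relative units in which a probe can be compared between arrays but not with another probe. Differences are 4-hydroxytamoxifen minus DMSO on the log2 scale, ± the standard error of the limma fit with n = 2 arrays per group. A difference was called at a limma p under 0.05 after Benjamini-Hochberg adjustment over all 17537 genes tested. Where a gene had several probes, the brightest stood for it. A probe was kept if at least 2 arrays read it well above background. This left 26392 probes, 18 of the 22 described here among them, and every one of the 10 genes kept a probe. Spots well above background made up 62.1% to 65.9% in 4-hydroxytamoxifen arrays and 62.4% to 62.7% in DMSO arrays. The lowest scaled signal well above background lay between 15.4 and 20.0 on the 4 arrays, 0 spots were saturated, and precision is limited by the number of arrays. A single slide, read in 1 scan, held all of them. Nanos2 read 927.2 and 1095 in 4-hydroxytamoxifen arrays, against 346.0 and 341.5 in DMSO arrays, a difference of 1.55 ± 0.10 (limma adjusted p = 0.000861), in the direction that the labels give.

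Of the 10 genes, 8 were higher in 4-hydroxytamoxifen cells, 1 was lower (Mdm4) and 1 was not called (Trp53). Trp63, 1 of the 8, was below the background limit on both DMSO arrays and passed the filter through its 4-hydroxytamoxifen arrays, so it had to differ; the other genes were measured on all 4 arrays. All 5 targets and Mdm2 were among the higher ones, by 0.70 to 1.63 on the log2 scale. The comparison moved a large part of the transcriptome: 69.5% of all genes tested were called, 40.3% as higher and 29.3% as lower. The count of called genes among the 10 has to be read against that share. The median difference of the 10 genes was 1.0, and the median of all genes tested was 0.11. Setting Trp63 at its lower bound could not move the median of the 10, since the bound also lies above it. With a filter on all 4 arrays, which drops Trp63, the median of the other 9 genes was 0.89, against 0.09 for all genes. The scaled signals of the 2 groups did not overlap for 9 of the 10 genes, where 86.5% of all genes did not overlap; Trp63 is again 1 of the 9. Scaling on spike-in probes or on array medians moved the median of all genes by -0.16 or -0.18, and the 10 genes moved by the same amount. The smallest two-sided p of an exact permutation test is 0.333 in this design, so every call depends on limma's pooling of the spread over genes.

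**Figure D1:**
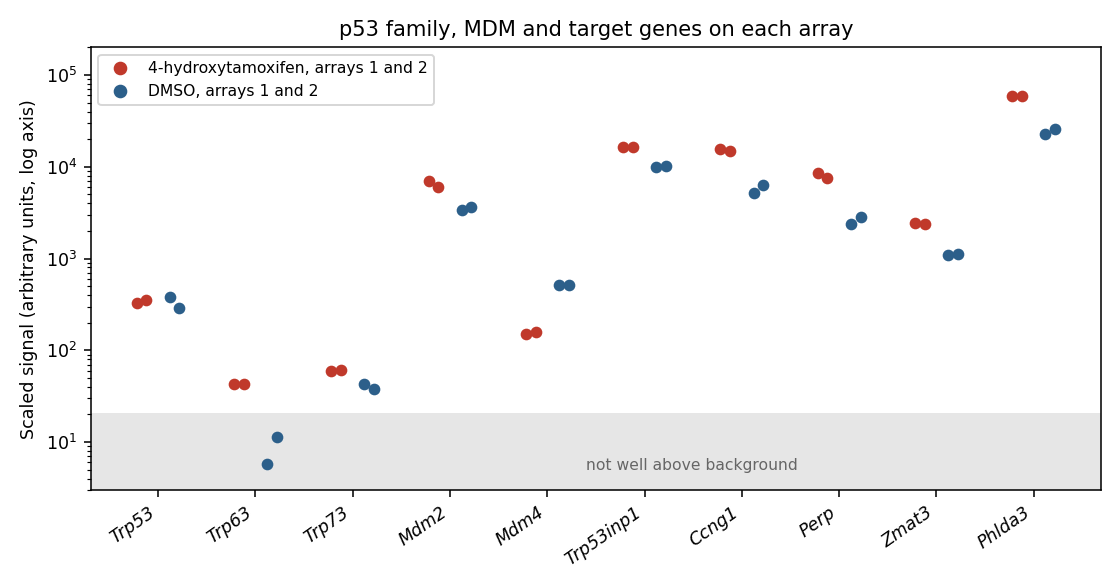
Scaled signal (log axis) of the probe that stands for each of the 10 genes, with 1 point per array, both 4-hydroxytamoxifen arrays left of both DMSO arrays. The grey band reaches up to 20.0, the highest of the 4 arrays' lowest signals well above background; only the DMSO points of Trp63 fall in it. The groups overlap for Trp53, Mdm4 is lower in 4-hydroxytamoxifen arrays, and the other 8 genes are higher.

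Trp53, which encodes p53 itself, did not differ by the probe that stood for it. A_52_P781398 read 327.5 and 350.5 in 4-hydroxytamoxifen arrays and 379.0 and 291.3 in DMSO arrays. The DMSO arrays lay on both sides of the 4-hydroxytamoxifen arrays. The means were 339.0 ± 16.3 in 4-hydroxytamoxifen and 335.1 ± 62.1 in DMSO (SD, n = 2 each). The log2 difference was 0.03 ± 0.15, with a 95% interval of -0.38 to 0.44 (limma adjusted p = 0.878). This interval leaves room for a change of either sign, and the sign itself was negative under spike-in scaling (-0.14) and median scaling (-0.15).

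The other Trp53 probe, A_52_P491849, is spotted 10 times on each array. Its scaled signal was 318.5 and 253.6 in 4-hydroxytamoxifen arrays, against 383.3 and 379.0 in DMSO arrays. Both 4-hydroxytamoxifen arrays were below both DMSO arrays, with a difference of -0.42 ± 0.13 (limma adjusted p = 0.0455 over all probes, of which 67.2% were called). The unscaled signals of its 10 spots ran from 288.2 to 345.2 and from 230.3 to 267.5 on the 4-hydroxytamoxifen arrays, and from 338.8 to 426.7 and from 376.2 to 405.9 on the DMSO arrays. The spots of an array varied by 2.46% to 6.38% (coefficient of variation), less than the 4-hydroxytamoxifen arrays differed from each other. The call sat close to the threshold and was lost in 4 of 13 alternatives, among them leaving out 4-hydroxytamoxifen replicate 2 (-0.26), DMSO replicate 1 or DMSO replicate 2 (adjusted p up to 0.115 over the alternatives). The difference between the probes' log2 differences, tested after their values had been seen, was -0.45 ± 0.21 and did not pass (limma adjusted p = 0.157).

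Trp63, which encodes p63, was near background. A_51_P216550 read 43.2 and 42.4 in 4-hydroxytamoxifen arrays, above background on both, and 5.78 and 11.3 in DMSO arrays, not well above background on either. Its signal was at least 2.55-fold higher in 4-hydroxytamoxifen cells, the bound being the 4-hydroxytamoxifen mean against the mean, over both DMSO arrays on the log2 scale, of each array's lowest signal well above background (limma adjusted p = 0.00471). Since the probe passed the filter only through the 4-hydroxytamoxifen arrays, this p is no support for the rise. With normexp background correction, which lifts dim signals by an offset of 50, the log2 difference was 0.53 in place of 2.41. The other 3 Trp63 probes were not well above background in either group, so the rise rests on 1 probe.

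Trp73, which encodes p73, was dim but measured in both groups by A_52_P410636. The signals were 59.9 and 60.9 in 4-hydroxytamoxifen arrays, against 43.2 and 38.1 in DMSO arrays. Every 4-hydroxytamoxifen value was above every DMSO value, a difference of 0.57 ± 0.09 (limma adjusted p = 0.00567). Scaled on spike-in probes, the difference was 0.41 and was not called (limma adjusted p = 0.0915). It was 0.29 with normexp and 1.97 as the mean of both Trp73 probes. A_52_P193555 read 26.3 and 68.9 in 4-hydroxytamoxifen arrays, against 4.66 and 3.61 in DMSO arrays, where it was not well above background. Its 4-hydroxytamoxifen mean was at least 2.54-fold higher by the same kind of bound (limma adjusted p = 0.00545). The 4-hydroxytamoxifen arrays were far apart, so this bound holds for their mean and not for the lower array, at 26.3, by itself. This probe too passed the filter only through the 4-hydroxytamoxifen arrays, so that p is no support either. With normexp its log2 difference was 0.86 in place of 3.38.

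Mdm2, the ubiquitin ligase of p53, was 1.85-fold higher in 4-hydroxytamoxifen cells. A_52_P469842 read 6931 and 6053 in 4-hydroxytamoxifen arrays, against 3373 and 3619 in DMSO arrays. The groups were well apart, with a difference of 0.89 ± 0.10 (limma adjusted p = 0.00227). The second Mdm2 probe, A_51_P201346, read 943.3 and 965.2 in 4-hydroxytamoxifen arrays and 600.2 and 606.8 in DMSO arrays, a difference of 0.66 ± 0.07 (limma adjusted p = 0.00197). It too is spotted 10 times, and its lowest unscaled spot on the 4-hydroxytamoxifen arrays, 857.4, was above its highest on the DMSO arrays, 657.2. The 2 probes lie at chr10:117126278-117126337 and chr10:117129725-117129784 on the minus strand, and the difference between them did not pass the test (-0.23, limma adjusted p = 0.192).

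Mdm4, the paralogue of Mdm2 that masks the p53 transactivation domain, was the only one of the 10 genes called lower. Its most 3′ probe, A_52_P596201, read 152.4 and 156.5 in 4-hydroxytamoxifen arrays, against 513.7 and 509.4 in DMSO arrays. The arrays of each group lay close together, and the signal was 3.31-fold lower in 4-hydroxytamoxifen cells, -1.73 ± 0.06 on the log2 scale (limma adjusted p = 0.000414). In order from the highest difference to the lowest, this placed Mdm4 at 17145 of 17537 genes.

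The 3 probes on the RefSeq Mdm4 transcript did not all share this fall. A_52_P485905, 3200 bases upstream, read 45.4 and 35.2 in 4-hydroxytamoxifen arrays, against 91.1 and 76.4 in DMSO arrays, -1.06 ± 0.17 (limma adjusted p = 0.00656). A_52_P174937, between these probes in position, read 34.4 and 32.5 in 4-hydroxytamoxifen arrays and 38.1 and 43.4 in DMSO arrays, -0.28 ± 0.10, and was not called (limma adjusted p = 0.0595). It was called in 4 of 13 alternatives, with quantile normalization, with median scaling, with a filter on all 4 arrays and without DMSO replicate 1. A_51_P176954, the most 5′, read 106.9 and 129.8 in 4-hydroxytamoxifen arrays and 144.8 and 125.7 in DMSO arrays. Its groups overlapped, and the difference of -0.20 ± 0.14 was not called (limma adjusted p = 0.265). The signs of all 4 probes were negative, the sizes ran from -0.20 to -1.73, and the mean over the probes was -0.82. A_52_P485905 and A_52_P174937 read not far above the background limit, and with normexp their differences were -0.49 and -0.09.

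The probes of Mdm4 were therefore compared with each other, a test chosen after the values had been seen and fitted over all 8855 pairs of a gene's other probe and its brightest one, of which 36% were called. The difference was less negative than at A_52_P596201 by 1.53 ± 0.13 at A_51_P176954 (limma adjusted p = 0.00423) and by 1.45 ± 0.11 at A_52_P174937 (limma adjusted p = 0.00373). At A_52_P485905 it was less negative by 0.67 ± 0.18 (limma adjusted p = 0.0485), a call lost with quantile normalization (adjusted p = 0.0708) and without 4-hydroxytamoxifen replicate 1 (0.46, adjusted p = 0.139), DMSO replicate 1 (0.79, adjusted p = 0.0570) or DMSO replicate 2 (0.55, adjusted p = 0.117). The size of the change in Mdm4 signal thus depended on the probe, and A_52_P596201 reads a cDNA that the other 3 probes were not designed on.

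**Figure D2:**
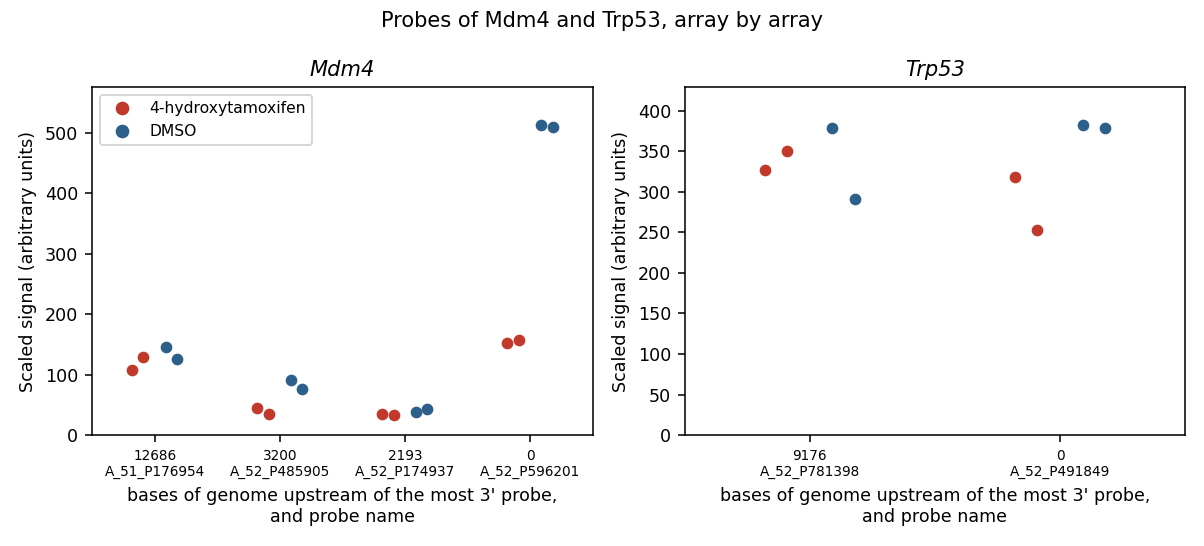
Scaled signal on each array for the 4 Mdm4 probes (left) and the 2 Trp53 probes (right), in their order from 5′ to 3′ as bases of genome upstream of the most 3′ probe, with 4-hydroxytamoxifen arrays left of DMSO arrays. A_52_P596201 of Mdm4 shows 152.4 and 156.5 against 513.7 and 509.4, while A_51_P176954 overlaps between the groups; heights of different probes are not comparable.

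The 5 targets were all higher in 4-hydroxytamoxifen cells. The probes that stood for them lie on mm9 at chr10:18576697-18576756 (plus strand) for Perp, chr11:40562427-40562486 (minus) for Ccng1, chr1:137665642-137665701 (plus) for Phlda3, chr3:32233831-32233890 (minus) for Zmat3 and chr4:11101174-11101233 (plus) for Trp53inp1. Perp, a tetraspan membrane protein of desmosomes and an apoptosis effector of p53, read 8513 and 7640 in 4-hydroxytamoxifen arrays, against 2377 and 2842 in DMSO arrays. Its difference of 1.63 ± 0.12, or 3.1-fold, was the largest among the 5 targets and stood at position 872 of 17537 genes ordered by difference (limma adjusted p = 0.00103). Ccng1, cyclin G1, which brings a phosphatase to MDM2, read 15480 and 14682 in 4-hydroxytamoxifen arrays and 5156 and 6299 in DMSO arrays. It was 2.65-fold higher, by 1.40 ± 0.12 (limma adjusted p = 0.00134). The second Ccng1 probe, A_51_P161612, read 11798 and 11845 in 4-hydroxytamoxifen arrays and 5538 and 5229 in DMSO arrays. It was also higher, by 1.14 ± 0.07 (limma adjusted p = 0.000892), and the difference between the probes did not pass (-0.27, limma adjusted p = 0.234).

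Phlda3, a pleckstrin-homology protein that keeps AKT from the membrane, read 59755 and 58860 in 4-hydroxytamoxifen arrays and 23020 and 25728 in DMSO arrays. The groups were far apart, with a difference of 1.29 ± 0.08 (limma adjusted p = 0.000807). Zmat3, a zinc-finger protein that binds RNA, read 2420 and 2393 in 4-hydroxytamoxifen arrays and 1094 and 1135 in DMSO arrays. The arrays of a group differed little, and the difference was 1.11 ± 0.06 (limma adjusted p = 0.000687). A further Zmat3 probe, A_52_P33039, was above background on 1 DMSO array, at 23.4, and on neither 4-hydroxytamoxifen array, and gave no fold. Trp53inp1, a stress-induced protein that promotes phosphorylation of p53, read 16593 and 16288 in 4-hydroxytamoxifen arrays and 10047 and 10217 in DMSO arrays. Its difference was the smallest of the 5, 0.70 ± 0.06 (limma adjusted p = 0.00136). Its second probe, A_52_P503387, read 1291 and 1416 in 4-hydroxytamoxifen arrays and 889.7 and 1091 in DMSO arrays. That difference was 0.46 ± 0.13 (limma adjusted p = 0.0354), a call lost in 6 of 13 alternatives, among them leaving out 4-hydroxytamoxifen replicate 1 (0.52), 4-hydroxytamoxifen replicate 2 (0.39) or DMSO replicate 1 (0.31), and the probes did not differ by the test (-0.24, limma adjusted p = 0.226).

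**Figure D3:**
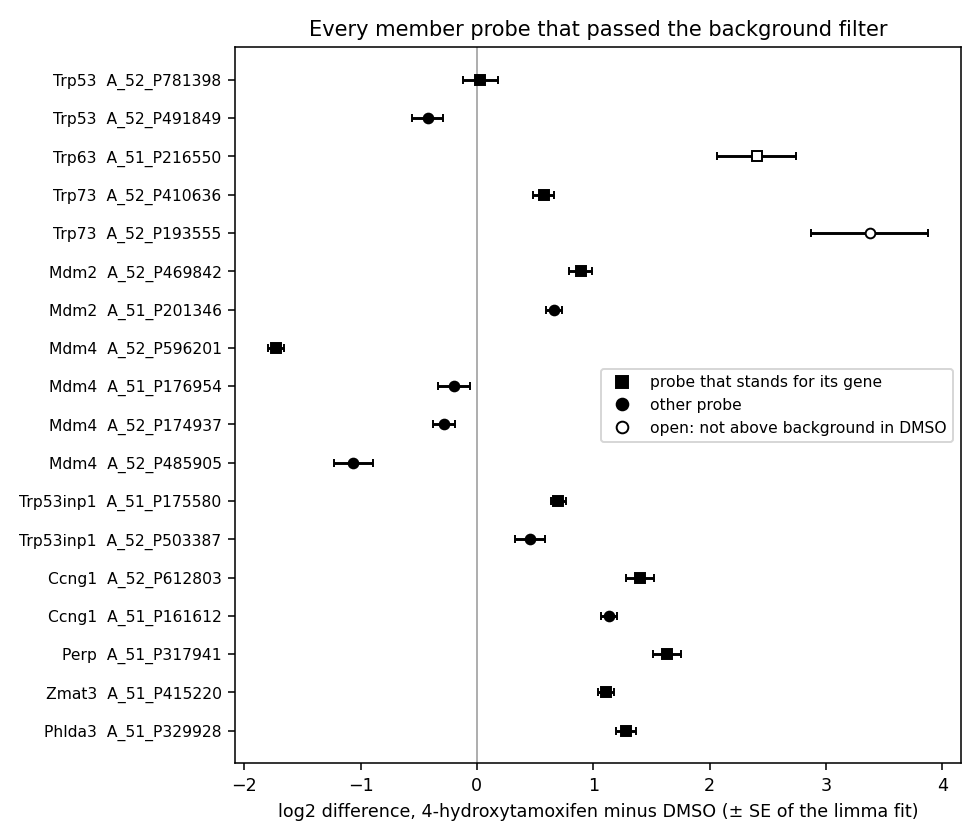
Log2 difference, 4-hydroxytamoxifen minus DMSO, of the 18 probes that passed the background filter, bars being limma's standard error. Squares are the probes that stand for their genes, circles other probes, and open symbols probes not well above background in DMSO, whose differences background limits. The 4 Mdm4 probes run from -1.73 to -0.20, the 2 Trp53 probes lie at -0.42 and 0.03, and all probes of the 5 targets and of Mdm2 lie above 0.

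RefSeq windows of 250 bases before the transcription start (GRCm38.p6) were at hand for 6 of the 10 genes, 8 windows in all. They were searched for the consensus p53 half-site, a palindrome of 10 bases that reads the same on both strands, and for pairs of half-sites at most 13 bases apart with no more than 2 mismatches in all. An exact half-site stood in the windows of Ccng1, Mdm2 and Trp53. The best pair was that of Ccng1, with 1 mismatch and no bases between its half-sites, and 1 of the 2 Trp73 windows held a pair with 2 mismatches. These 4 windows are shown, with exact half-sites and the best pair in capitals.
Ccng1: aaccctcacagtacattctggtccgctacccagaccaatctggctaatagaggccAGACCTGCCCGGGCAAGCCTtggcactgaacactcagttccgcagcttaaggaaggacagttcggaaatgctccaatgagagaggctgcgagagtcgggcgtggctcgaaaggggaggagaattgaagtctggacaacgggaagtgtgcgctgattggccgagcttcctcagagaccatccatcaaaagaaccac
Mdm2: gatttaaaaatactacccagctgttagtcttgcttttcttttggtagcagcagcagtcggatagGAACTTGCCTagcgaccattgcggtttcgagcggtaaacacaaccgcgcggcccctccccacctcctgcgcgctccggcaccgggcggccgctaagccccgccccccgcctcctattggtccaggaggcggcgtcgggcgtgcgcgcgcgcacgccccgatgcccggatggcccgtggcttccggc
Trp53: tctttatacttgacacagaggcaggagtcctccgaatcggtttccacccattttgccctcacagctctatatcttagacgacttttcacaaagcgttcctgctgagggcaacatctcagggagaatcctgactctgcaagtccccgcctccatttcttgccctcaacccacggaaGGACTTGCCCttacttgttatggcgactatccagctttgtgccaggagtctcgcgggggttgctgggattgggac
Trp73: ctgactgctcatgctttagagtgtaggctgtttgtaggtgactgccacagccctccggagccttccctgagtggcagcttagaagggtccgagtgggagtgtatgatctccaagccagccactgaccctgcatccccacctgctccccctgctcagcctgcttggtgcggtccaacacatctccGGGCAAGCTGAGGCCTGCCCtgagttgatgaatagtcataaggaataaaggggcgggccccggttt
The windows are at chr11:40755287-40755536 (minus strand) for Ccng1, chr10:117710759-117711008 (minus) for Mdm2, chr11:69580109-69580358 (plus) for Trp53 and chr4:154097174-154097423 (minus) for Trp73. The exact half-site began 185 bases before the start in Ccng1, 186 in Mdm2 and 75 in Trp53, and the pairs began 195 bases before it in Ccng1 and 66 in Trp73. Of all 32851 such windows, 7.13% held an exact half-site and 3.34% a pair. Mdm4 and Phlda3 had windows with neither. A match describes the letters of the window and not binding. Matches stood before genes with different readings here: Ccng1, Mdm2 and Trp73 were called higher, and Trp53 was not called by its brightest probe.

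Among 32 other direct p53 targets measured, 22 were higher (68.8%, against 40.3% of all genes), 5 lower (15.6%, against 29.3% of all genes) and 5 not called. Their median difference was 0.57, against 0.11 for all genes. These targets, like the other lists here, were chosen with earlier results of these data known. Whether p53 controls each listed gene in mouse germline stem cells was not tested. Spike-in scaling left 16 higher and 4 lower, and median scaling 17 higher and 7 lower. The choice of probe mattered too: the mean of a gene's probes gave 18 higher and 6 lower, with a median of 0.43. Calls over all 17537 genes changed as well, from 7063 higher and 5132 lower. They were 4789 higher and 4998 lower with spike-in scaling, and 5730 higher and 6663 lower with median scaling. The mean of a gene's probes gave 6682 higher and 5189 lower. The highest were Fas, the death receptor, at 1.51 ± 0.11, Eda2r, another receptor of the TNF receptor family, at 1.43 ± 0.07, the polo-like kinase Plk2 at 1.29 ± 0.08, and Bbc3, which encodes the apoptosis inducer PUMA, at 1.26 ± 0.07. Fas read 3943 and 3870 in 4-hydroxytamoxifen arrays, against 1249 and 1503 in DMSO arrays, and Bbc3 read 9119 and 8535 against 3630 and 3715. Cdkn1a, the cell-cycle inhibitor p21, named here after its value was seen, was higher by 1.05 ± 0.07 (limma adjusted p = 0.000798).

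The 5 lower genes of this list included Tigar, a regulator of glycolysis, at -1.42 ± 0.10, with 385.2 and 438.6 in 4-hydroxytamoxifen arrays and 1142 and 1063 in DMSO arrays. Ddb2, a sensor of UV damage, was lower by -0.88 ± 0.08 and Sfn, the checkpoint protein 14-3-3 sigma, by -0.48 ± 0.07 at its brightest probe, with -0.07 and -0.25 at its other probes and -0.27 as the mean of all its probes. Bax, the pore-forming apoptosis protein, was at -0.37 ± 0.08 (limma adjusted p = 0.0186), a call lost without a filter on dim probes, without 4-hydroxytamoxifen replicate 1 and without DMSO replicate 2 (adjusted p up to 0.0658). Bbc3 and Bax, which both act in p53-dependent apoptosis, were called in opposite directions.

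Among regulators of p53 family proteins, 29 of the 30 listed were measured. Of these, 10 were higher (34.5%), 9 lower (31.0%) and 10 not called, near the 40.3% and 29.3% over all genes, and their median of 0.10 was close to the 0.11 of all genes. The checkpoint kinase Chek1, which phosphorylates p53 after replication stress, had 295.9 and 306.4 in 4-hydroxytamoxifen arrays, against 1123 and 1083 in DMSO arrays, -1.87 ± 0.06. Chek2, the checkpoint kinase downstream of ATM, was at -1.20 ± 0.10, the p53 deacetylase Sirt1 at -0.80 ± 0.10 and Usp7, which removes ubiquitin from p53 and MDM2, at -0.76 ± 0.08. Among the higher regulators, the p53 kinase Hipk2 was at 1.5 ± 0.13 by its brightest probe, but its other 3 probes lay at -0.06, -0.47 and 0.33 and the mean over its probes at 0.32. Trp53inp2, the paralogue of Trp53inp1, was at 1.19 ± 0.07, and Yap1, a coactivator of p73, at 1.03 ± 0.22. Abl1, the tyrosine kinase that binds p73, was at 0.93 ± 0.08 by its brightest probe. Its other probe that passed the filter lay at 0.41, and the mean of its probes at 0.67. The Yap1 call was lost without 4-hydroxytamoxifen replicate 1 (1.09, adjusted p = 0.0640) or replicate 2 (0.97, adjusted p = 0.0795).

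**Figure D4:**
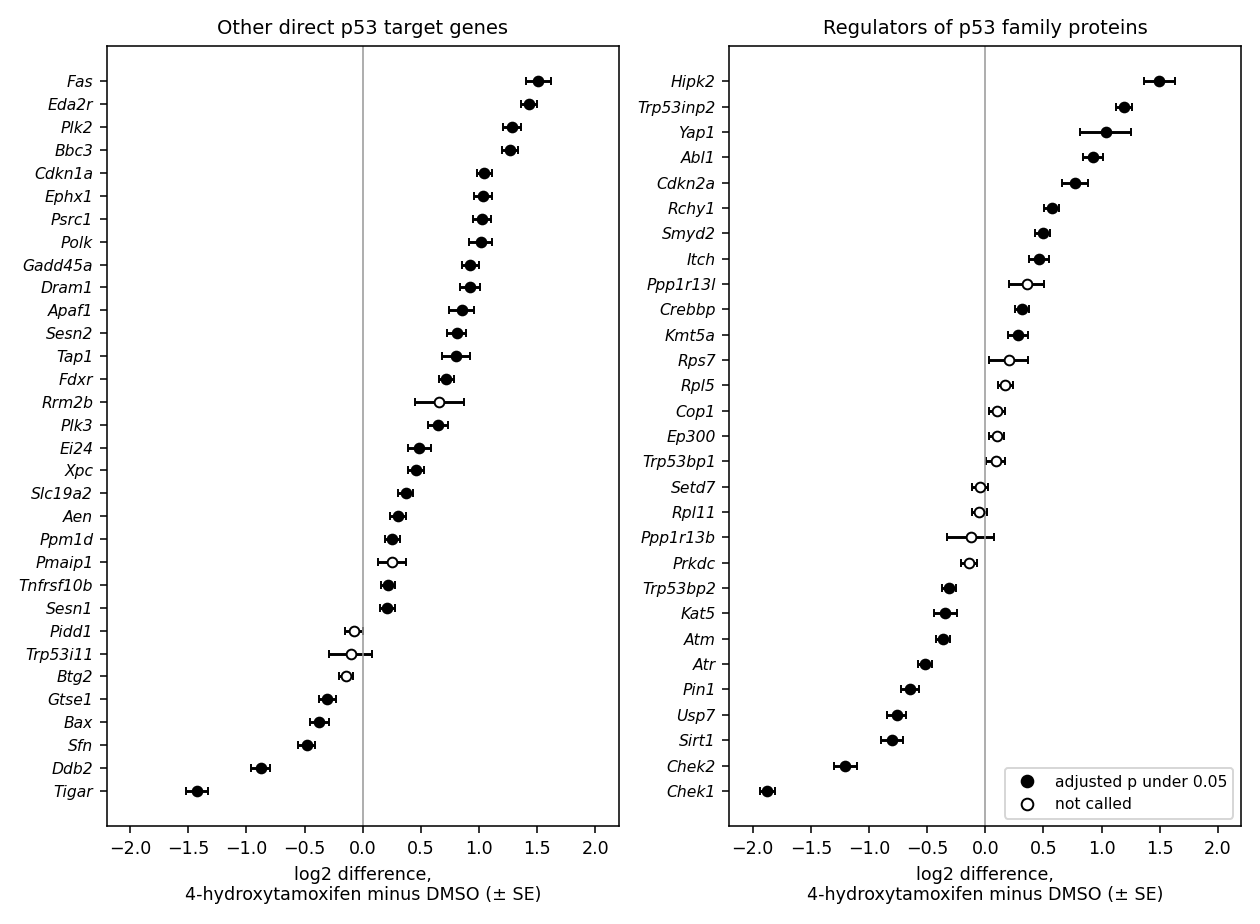
Log2 difference, 4-hydroxytamoxifen minus DMSO, of the other direct p53 targets (left, 32 genes) and of the regulators of p53 family proteins (right, 29 genes), bars being limma's standard error; filled points passed an adjusted p under 0.05. Targets run from 1.51 (Fas) to -1.42 (Tigar) with 22 higher and 5 lower, and regulators from 1.5 (Hipk2) to -1.87 (Chek1) with 10 higher and 9 lower.

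Markers of other cells moved with the groups. Their counts stand beside 40.3% higher, 29.3% lower and a median of 0.11 over all genes. Each sum below adds signals of different probes and is weighted to the brightest. Of 29 fibroblast markers measured, 27 were higher and 1 lower, with a median of 0.94 and a summed scaled signal of 540169 to 568096 in 4-hydroxytamoxifen arrays, against 286598 to 329777 in DMSO arrays. S100a4 gave the most, 155510 and 147029 in 4-hydroxytamoxifen arrays and 68753 and 82362 in DMSO arrays. The largest differences were Thbs1 at 1.48 and Pdgfrb at 1.40, Fap was above background on 1 array, and the lower one was Cdh11 at -0.34, whose mean over its probes was 0.75 and whose call was lost without 4-hydroxytamoxifen replicate 1 or 2 or DMSO replicate 1 (-0.33, -0.34 and -0.28). Of 14 macrophage, endothelial and blood markers measured, 10 were higher and 0 lower, with a median of 1.09 and a sum of 26500 to 27160 in 4-hydroxytamoxifen arrays, against 12139 to 13475 in DMSO arrays. Most of this sum was Lyz2, with 23693 and 24352 in 4-hydroxytamoxifen arrays and 10711 and 12154 in DMSO arrays. Emcn at 1.65 and Hba-a1 at 1.44 (0.62 with normexp) had the largest differences, while Ptprc was above background on 3 arrays and Itgam and Cdh5 on 0. The 4 not called, given here after their values were seen, were Kdr at 0.22, Cd68 at 0.11, Ptprc at 0.01 and Pecam1 at -0.47. Ptprc and Pecam1 read near background. Of 8 Sertoli and Leydig cell markers measured, 5 were higher and 2 lower, with a median of 0.93 and a sum of 8462 to 8919 in 4-hydroxytamoxifen arrays, against 3942 to 4377 in DMSO arrays. Cldn11 at 3.58 (2.24 with normexp) and Dhh at 1.33 were the highest, Wt1 at -0.88 (-0.35 with normexp) and Cyp17a1 at -0.43 (-0.23 with normexp) the lower ones. Gata4 and Hsd3b1 were above background on 1 array, and Amh and Cyp11a1 on 0. The Cyp17a1 call was lost without 4-hydroxytamoxifen replicate 1 (-0.31) or DMSO replicate 1 (-0.37).

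All 9 germ cell markers measured, the check on the labelled cell type, were above background on every array. Their sum was 88106 to 91140 in 4-hydroxytamoxifen arrays, against 115883 to 117170 in DMSO arrays. Of the 9, 1 was higher (Dppa4 at 0.38) and 4 were lower, with a median of -0.17. Over all genes, 40.3% were higher and 29.3% lower, with a median of 0.11. Gfra1, the GDNF receptor, at -2.45 and Rhox13 at -1.60 were the lowest of these markers. Dppa4 was not called with median scaling (0.20), with spike-in scaling (0.22) or without 4-hydroxytamoxifen replicate 2 (0.33). In these bulk samples, fewer cells of a type and less RNA per cell cannot be told apart. The part of such cells in the differences of the p53 family, MDM and target genes was not tested.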

How the data were processed

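Per the labels' protocols, RNA of 4 samples (0.20 µg each) was labelled with Cy3 for 1-colour Agilent arrays. Spot intensity in the scanner files, as deposited, is linear. Background subtraction and detrending were done in Feature Extraction 10.7.3.1, per the file headers; the submitters' processing notes name version 9.5. A deposited table of log2 values served as an alternative. Its median difference from log2 of the processed signal was 0.362 and 0.356 on the 4-hydroxytamoxifen arrays, and 0.290 and 0.275 on the DMSO arrays. Its column medians were 6.35 and 6.35 for 4-hydroxytamoxifen, and 6.16 and 6.18 for DMSO.

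From the 43379 spots per array, 60 to 71 outlier spots were left out, spots of a probe were averaged, and log2 processed signals were taken minus each array's 75th percentile (706.1 and 707.6 for 4-hydroxytamoxifen, 738.6 and 745.9 for DMSO). Names were updated through RefSeq (GRCm38.p6), which matched 33636 of 41174 probes. Groups were fitted with limma 3.58.1 in R 4.3.3 (lmFit, eBayes, no block), over all genes and over all probes; the code was tested on simulated data. Log2 values of arrays correlated at 0.996 within 4-hydroxytamoxifen, 0.995 within DMSO and 0.945 to 0.952 between groups.

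The 10 genes and all lists were chosen with earlier results of these data known. The rule for names covered the 10 genes with every probe, Nanos2, up to 4 called genes in each direction per pathway list, and up to 2 per marker list with members not above background on every array. Alternatives were normexp (offset 50), quantile, median and spike-in scaling (6 probes), the deposited values, 2 filters, the mean of a gene's probes, outlier spots kept, a replicate block and each array left out. Trp53rk, Zbtb16, Insl3 and Hbb-bs of the lists were not analysed here.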

Additional observations from a re-analysis of the deposited data

How the results depend on the processing

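Across the 14 alternatives, Mdm2, Mdm4, Trp53inp1, Ccng1, Perp, Zmat3 and Phlda3 kept direction and call in every one. Trp73 did so in 13, the exception being spike-in scaling. Trp63 kept direction and call in the 13 that kept it. That is no support for its rise, since its probe was above background only on the 4-hydroxytamoxifen arrays. With normexp the differences of Trp63 and Trp73 shrank to 0.53 and 0.29, in place of 2.41 and 0.57. The Trp53 difference of 0.03 turned to -0.35 with normexp (adjusted p = 0.00897, where A_52_P491849 stood for the gene), -0.0041 with quantile normalization, -0.15 with median scaling, -0.14 with spike-in scaling, -0.20 as the mean of its probes, and ran from -0.16 to 0.22 with an array left out; its probe A_52_P781398 by itself turned likewise with quantile, median and spike-in scaling and without 4-hydroxytamoxifen replicate 2 (-0.02) or DMSO replicate 2 (-0.16). Normexp thus gave 2 lower members in place of 1. Cdh11 turned to 0.75 as the mean of its probes. With spike-in scaling 5 regulators were higher in place of 10, and 16 other targets in place of 22. Higher calls over all 17537 genes also fell with this scaling, from 7063 to 4789. Lower calls among the other targets were 3 without a filter in place of 5, and 3 to 4 with an array left out (3 without 4-hydroxytamoxifen replicate 1). Calls over all genes were 57.9% higher and 42.1% lower, against 46.2% and 53.8% with median scaling and 48.9% and 51.1% with spike-in scaling. Signal near background limits Trp63, Trp73 and the Mdm4 probes A_52_P174937 and A_52_P485905. Equal replicate numbers were not shown to pair arrays (correlation of deviations -0.045). With the replicate block, 8 members were higher and 1 lower, 18 and 4 of the other targets, 9 and 9 regulators, and 6505 and 4556 of all genes. No gene covered by the rule for names lost its call there. Cdkn1a, S100a4 and Lyz2, named outside that rule, were not followed through the alternatives. The cause of these shifts was not tested.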
